A study of Gossypium hirsutum with 9 samples.

Results

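The genes described are those of auxin perception, response and transport in elongating cotton fibre, 397 of the 70478 genes in the deposited table. They were chosen by their symbol alone, which had to name an Aux/IAA protein (IAA, 71 genes), an auxin response factor (ARF3 to ARF19, 72 genes), a receptor (TIR1 or AFB, 13 genes), a SAUR protein (137 genes), a GH3 enzyme (58 genes), a PIN carrier (28 genes) or a LAX carrier (18 genes). The plants were upland cotton (Gossypium hirsutum) raised in the field, and RNA was taken at 9 days post anthesis from the fibres, single-celled hairs of the seed coat that elongate at that time. The WT group was wild-type plants (3 libraries, replicates 1 to 3), and the RNAi group was plants in which RNA interference targets GhWRKY16, a transcription factor gene (5 libraries, replicates 2 to 6). The labels list 6 RNAi samples, but the values used here had no column for RNAi replicate 1, so it was not analysed. The sources used here give neither the promoter of the construct nor the number of transgenic lines or of plants per sample. Since nothing says that replicates were separate plants, p-values measure only how far these samples spread, and that spread may be technical.

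Auxin is perceived when the F-box proteins TIR1 and AFB bind it together with an Aux/IAA repressor. The repressor is then degraded, and the ARF transcription factors that it held are freed to act on their target genes. Early targets include the SAUR genes, whose small proteins promote acid growth of the wall in Arabidopsis, the GH3 genes, whose enzymes couple auxin to amino acids and so lower its level, and the Aux/IAA genes themselves. PIN proteins export auxin from cells and the LAX proteins, relatives of AUX1, import it. In cotton, auxin supplied to cultured ovules promotes fibre initiation and growth.

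Levels are given as FPKM (fragments mapped to a gene, scaled to its length and to the size of the library), which are per length and can be set side by side between genes. Library sums ranged from 1200826 to 1296912 FPKM, and correlations of log2(FPKM + 1) between libraries across tested genes, which are not independent replicates, from 0.930 to 0.982. Read counts are unknown. The relative depth, taken from the ratios of low values, was 0.366 in RNAi replicate 4, the lowest, and 2.19 in RNAi replicate 5, the highest, with WT replicate 1 set to 1. Some fibre markers were abundant, with the 6 E6 genes at a sum of 36116 to 39200 FPKM in WT and 30949 to 39487 in RNAi. Of the 247 genes of the fibre list, 50 were listed at 0 in every library. Among them were all genes called ACT1, SUS4, EXPA11, EXPA12, EXPA17, FLA14 or KCS16. Of the 124 tested genes of the fibre list, 94 had a positive log2 fold change (median 0.17), against 46.4% of all tested genes (median -0.02). An unadjusted limma p under 0.05 was reached by 14 (11.3%), against 5.86% of all tested genes. The threshold described below was passed by 1, against 0.167% of all tested genes. The part of this shift in the auxin results was not tested. The seed storage markers LEGA and LEGB were listed at 0 in every library, and the 20 genes of the seed storage list summed to at most 0.938 FPKM in WT and 1.72 in RNAi. Among genes picked by symbol as markers of green tissue (98 genes, sum 484 to 605 FPKM in WT and 449 to 528 in RNAi) the log2 fold change was positive in 16 and negative in 16 of 32 tested genes. Of these 32, 7 (21.9%) had an unadjusted limma p under 0.05, against 5.86% of all tested genes. By symbol, the RBCS genes summed to 2.02 to 4.396 FPKM in WT and 7.80 to 12.2 in RNAi, without overlap. CAB21 (2.84 to 5.10 and 5.29 to 13.8), PSBO, LHCB5, CAB6A, CAB8 and PSAL were also higher in RNAi without overlap. All of these but RBCS and CAB21 were at most 2.87 FPKM in any library. The PSAN genes alone lay lower without overlap, at 66.8 to 78.0 and 53.0 to 61.8. Much of the list sum lay in the PSAP genes, at 285 to 384 FPKM in WT and 242 to 333 in RNAi. The match by symbol also took in CAB39 (25.4 to 36.4 and 27.3 to 31.0) and CABIN1. These 3 symbols may name proteins other than such markers, so the sum and the signs need not measure green tissue. The part of these markers in the results below was not tested. The silenced gene was not identified among the symbols, so the labels were not checked against it.

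Most symbols are shared by several cotton genes, and some are ambiguous. ARF3 to ARF6 (33 genes) also name animal ADP-ribosylation factors. The file does not say which protein these genes encode. Cotton also has near-identical gene copies in its A and D subgenomes, and the sources used here do not say how reads that fit several copies were counted. The SAUR32 genes Gh_A08G0911 and Gh_D08G1114 had identical values above 0 in 4 libraries, so values of close copies are uncertain.

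Expression was concentrated in a few genes. Of the 397 genes, 88 were listed at 0 in every library, and 150 reached at least 1 FPKM in at least 3 libraries and were tested. In WT, 38 genes had a mean of at least 10 FPKM and 8 of at least 100 FPKM. Of these 8, 3 were Aux/IAA genes and 3 SAUR genes. By family, 40 of 71 IAA genes, 48 of 72 ARF genes and 9 of 13 receptor genes were tested, against 30 of 137 SAUR genes, 11 of 58 GH3 genes, 11 of 28 PIN genes and 1 of 18 LAX genes.

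**Figure D1:**
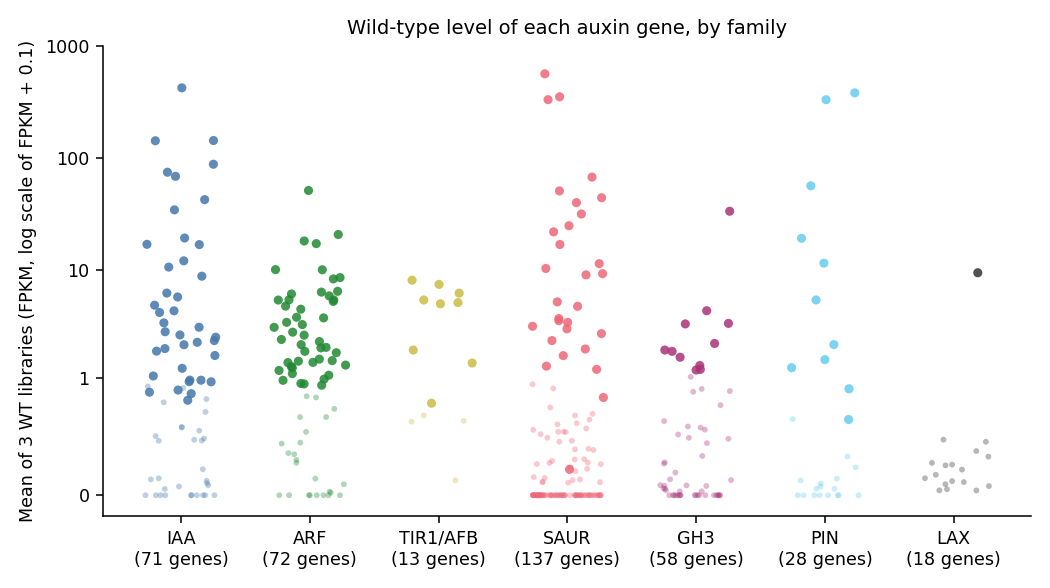
Mean FPKM of the 3 WT libraries for each of the 397 genes, by family, on a log scale of FPKM + 0.1; large dark points are the 150 tested genes and small pale points the others. Among the IAA and SAUR genes, 3 each stood above 100 FPKM, while no ARF, receptor, GH3 or LAX gene did.

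Between the groups, 1 of the 150 tested genes passed the threshold (limma, Benjamini-Hochberg adjusted p under 0.05 over 34051 genes), a SAUR32 gene that fell in RNAi and is described below. This is 0.667% of the tested auxin genes, against 0.167% of all tested genes (0.0881% lower and 0.0793% higher in RNAi). That 1 gene was tested only through its WT libraries, since no RNAi library had 1 FPKM. An unadjusted p under 0.05 was reached by 13 of 150 (8.67%), against 5.86% of all genes, and 9 of the 13 were higher in RNAi (6.0% of the 150, against 2.44% of all genes) and 4 lower (2.67%, against 3.42%). The groups did not overlap in 6 of 150 (4.0%), against 4.07% of all genes. The log2 fold change (RNAi minus WT, on the log2(FPKM + 1) scale, which understates the change of low genes) was positive in 82 of 150 (54.7%), against 46.4% of all genes. Its median was 0.04, against -0.02 over all genes. The non-overlapping share thus lay near that of all genes. In bulk RNA, fewer cells of a type and less RNA per cell cannot be told apart.

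**Figure D2:**
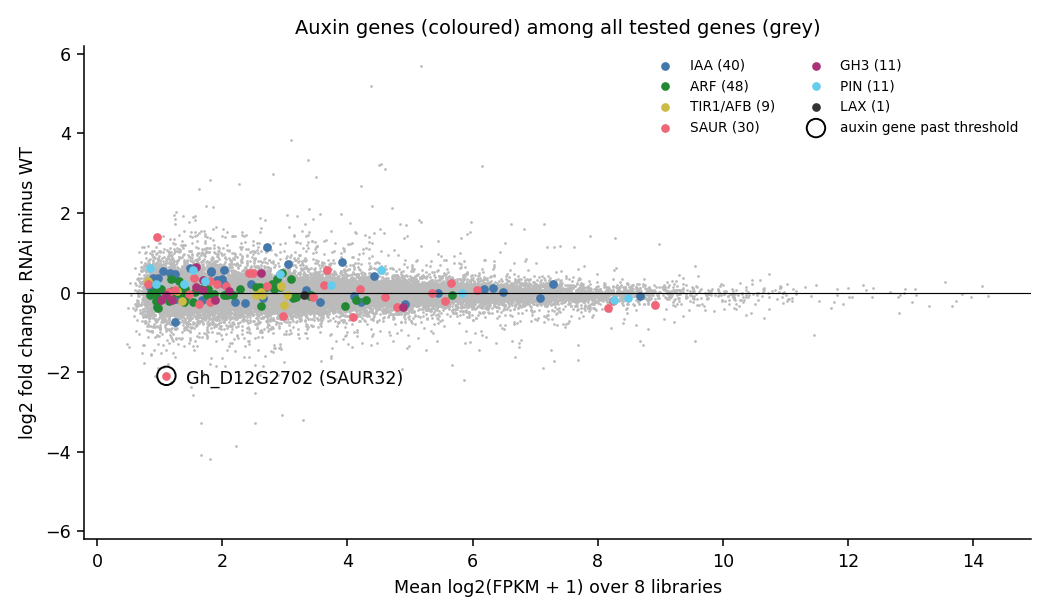
The log2 fold change (RNAi minus WT) against the mean log2(FPKM + 1) over 8 libraries for the 34051 tested genes, with the 150 tested auxin genes coloured by family. Apart from Gh_D12G2702 (SAUR32), circled at -2.09, no auxin gene passed the threshold.

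The receptor genes were expressed at a low level, which was even among the WT libraries only. The median range of log2(FPKM + 1) over the tested receptor genes was 0.303 in WT, against 0.396 for all tested genes. In RNAi it was 0.761, against 0.579. TIR1 and AFB proteins are the substrate-binding parts of the ubiquitin ligase that marks Aux/IAA proteins. Their 13 genes summed to 42.2 ± 1.82 FPKM in WT and 41.2 ± 6.16 in RNAi (SD, n = 3 and 5), and none of 9 tested genes passed the threshold (lowest limma adjusted p 0.864). Gh_A11G0586 (AFB2) was the highest in WT, at 9.06, 8.29 and 6.99 FPKM in WT replicates 1 to 3 and 9.13, 5.63, 4.98, 5.99 and 6.34 in RNAi replicates 2 to 6. Its limma adjusted p was 0.864, with RNAi replicate 2 as high as WT replicate 1 and the other 4 RNAi libraries below the WT range. Gh_A07G2125 (AFB3) had 7.44 ± 0.259 FPKM in WT against 7.13 ± 1.41 in RNAi (limma adjusted p = 0.954). Gh_D11G1228 (TIR1), the receptor gene with the next lowest unadjusted p, had 0.56 ± 0.193 and 0.926 ± 0.287 FPKM (limma adjusted p = 0.874).

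The Aux/IAA genes, the repressors of the pathway, were led by 1 gene. Gh_A09G1947 (IAA14), named after a repressor that acts in lateral root formation in Arabidopsis, had 434, 406 and 432 FPKM in WT replicates 1 to 3 and 403, 450.0, 353, 398 and 395 in RNAi replicates 2 to 6. All 8 libraries lay between 353 and 450.0 FPKM, and the groups overlapped (log2 fold change -0.09 ± 0.10 (SE), limma adjusted p = 0.905). With the next gene, Gh_D10G0965 (IAA9) at 144 ± 29.9 FPKM in WT against 130.1 ± 17.6 in RNAi, it carried 48.5% of the WT sum of the 71 genes. Gh_D11G1104 (IAA30) followed at 143 ± 35.1 and 170.4 ± 49.3 FPKM, and in WT it and Gh_D10G0965 did not differ beyond their spread. Gh_D05G3823 (IAA8) and Gh_A05G3764 (IAA8) stood at 88.4 ± 7.81 and 42.7 ± 4.38 FPKM in WT, and in RNAi at 89.4 ± 6.01 and 42.7 ± 6.52. The IAA9 and IAA8 genes were named for their level, after their values were seen.

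None of the 40 tested Aux/IAA genes passed the threshold (lowest limma adjusted p 0.618). The log2 fold change was positive in 27 of 40, with a median of 0.14, and in 28 of 40 after median-ratio scaling. The lean was smaller among the more abundant genes, at 10 of 19 with a median of 0.016 when a filter of 5 FPKM was used. The median was also lower without RNAi replicate 2 (0.034) or without WT replicate 1 (0.057), with 24 of 40 positive in each. All 6 tested IAA16 genes were positive, without any passing. Gh_A05G2857 (IAA29) had the lowest p, at 2.03, 2.21 and 2.60 FPKM in WT replicates 1 to 3 and 1.12, 0.426, 0.854, 0.856 and 1.83 in RNAi replicates 2 to 6. Every RNAi library lay below every WT library, with RNAi replicate 6 nearest, but the limma adjusted p was 0.618 (log2 fold change -0.74 ± 0.22 (SE)). Gh_D05G0249 (IAA27), named after its values were seen, had 1.25 ± 0.803 FPKM in WT against 2.34 ± 0.647 in RNAi (limma adjusted p = 0.84), and its groups overlapped. Gh_D11G1377 (IAA11) had 2.20 ± 0.404 FPKM in WT against 3.85 ± 1.28 in RNAi (limma adjusted p = 0.839), with RNAi replicate 2 inside the WT range. The groups also did not overlap for Gh_D08G2060 (IAA11), named for that after its values were seen, at 19.4 ± 0.676 and 16.5 ± 1.71 FPKM (limma adjusted p = 0.864).

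The ARF genes, which bind auxin-responsive promoters, stayed close to their WT level as a sum, 259.6 ± 17.5 FPKM in WT and 254 ± 19.6 in RNAi (SD, n = 3 and 5). In Arabidopsis ARF5, ARF6, ARF7, ARF8 and ARF19 activate transcription and the others mainly repress it. The 30 genes with the activator symbols summed to 38.5 ± 6.56 FPKM in WT and 40.7 ± 8.77 in RNAi, and the other 42 to 221 ± 10.97 FPKM in WT and 213 ± 12.3 in RNAi, both per length. Of the 30, 20 carry the ambiguous symbols ARF5 and ARF6, and the 10 genes called ARF7, ARF8 or ARF19 summed to 17.5 ± 3.53 FPKM in WT and 17.8 ± 5.18 in RNAi. The other 42 also hold ambiguous symbols, ARF3 (9 genes, 48.6 FPKM in WT and 45.9 in RNAi) and ARF4 (4 genes, 1.85 and 1.35). Gh_A12G1016 (ARF11) was the highest, at 46.3, 53.7 and 54.7 FPKM in WT replicates 1 to 3 and 50.4, 50.1, 53.5, 44.4 and 46.4 in RNAi replicates 2 to 6. Its libraries overlapped between groups throughout (log2 fold change -0.07 ± 0.11 (SE), limma adjusted p = 0.929).

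ARF18 was the most frequent ARF symbol, with 17 genes, 15 of them tested, and a summed level of 109 ± 7.55 FPKM in WT and 107 ± 8.05 in RNAi. Gh_A03G0274 (ARF18) led it at 20.8 ± 6.48 FPKM in WT against 18.2 ± 4.56 in RNAi (limma adjusted p = 0.92). Gh_A10G1836 (ARF18) had 5.52, 6.73 and 3.88 FPKM in WT replicates 1 to 3 and 10.5, 9.08, 7.79, 5.89 and 6.32 in RNAi replicates 2 to 6. RNAi replicates 2, 3 and 4 stood above every WT library and RNAi replicates 5 and 6 did not (log2 fold change 0.48 ± 0.21 (SE), limma adjusted p = 0.844). It was the 1 ARF gene of 48 with an unadjusted p under 0.05. Its namesake on the D chromosome of the same number, Gh_D10G2093 (ARF18), had 6.44 ± 0.858 and 8.46 ± 1.54 FPKM (limma adjusted p = 0.864). Gh_A09G0993 (ARF4) had 1.26 ± 0.326 and 0.773 ± 0.201 FPKM (limma adjusted p = 0.864). Over the family the log2 fold change was positive in 21 and negative in 27 of 48 genes, with a median of -0.06, and without WT replicate 2 it was positive in 26 (median 0.025).

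The SAUR genes had the highest summed level of the families by group mean, 1476, 1400.1 and 2031 FPKM in WT replicates 1 to 3 and 1224, 1238, 1566, 1353 and 1627 in RNAi replicates 2 to 6. WT replicate 3 was highest and RNAi replicates 2 and 3 lowest, and the groups overlapped. In those 2 RNAi libraries the IAA genes summed higher, to 1316 and 1299 FPKM. Most of the sum lay in SAUR71 and SAUR32 genes. Gh_A12G0376 (SAUR71) was the highest auxin gene in WT, at 503, 447 and 744 FPKM in WT replicates 1 to 3 and 392, 423, 513, 405 and 498 in RNAi replicates 2 to 6, and RNAi replicates 4 and 6 lay inside the WT range (log2 fold change -0.31 ± 0.17 (SE), limma adjusted p = 0.864). Over the family the log2 fold change was positive in 16 and negative in 14 of 30 tested genes, and 5 had an unadjusted p under 0.05 (16.7%, against 5.86% of all genes). The balance of signs turned without WT replicate 3 (13 positive) or RNAi replicate 3 (14 positive). The D namesake of Gh_A12G0376, Gh_D12G0289 (SAUR71), had 263, 279 and 517 FPKM in WT replicates 1 to 3 and 174, 213, 435, 212 and 334 in RNAi replicates 2 to 6. WT replicate 3 was the highest library for both SAUR71 genes and RNAi replicate 2 the lowest. Gh_D08G2457 (SAUR72), named after its values were seen, had 7.27, 8.45 and 11.5 FPKM in WT replicates 1 to 3 and 16.3, 15.6, 10.7, 14.0 and 12.7 in RNAi replicates 2 to 6. WT replicate 3 lay above RNAi replicate 4, so the groups overlapped (log2 fold change 0.57 ± 0.18 (SE), limma adjusted p = 0.683). The pair Gh_D07G0491 (SAUR71) and Gh_A07G0427 (SAUR71), named after its values were seen for a low unadjusted p in both, lay lower in RNAi without passing. The D gene had 22.02 ± 7.78 FPKM in WT against 13.6 ± 2.64 in RNAi (limma adjusted p = 0.825) and the A gene 9.29 ± 2.46 and 5.99 ± 1.84 (limma adjusted p = 0.84).

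The log2 fold changes of the tested SAUR32 genes spanned -2.09 to 1.39. Both ends were low genes that reached the filter of 1 FPKM in 1 group alone, so the span is not read as a result. Of the 20 SAUR32 genes, 5 were listed at 0 in every library and 6 were tested, of which 3 had a positive and 3 a negative log2 fold change. Gh_D12G2702 (SAUR32) fell in RNAi, with 3.82, 7.70 and 2.61 FPKM in WT replicates 1 to 3 and 0.506, 0.231, 0, 0.387 and 0.191 in RNAi replicates 2 to 6. The highest RNAi library lay below the lowest WT library, and RNAi replicate 4, the shallowest, was listed at 0. limma gave a log2 fold change of -2.09 ± 0.27 (SE) and an adjusted p of 0.0174. The gene reached the filter of 1 FPKM in its WT libraries alone. The call was close to the threshold, since it was lost with a pseudocount of 0.1 (adjusted p = 0.0776) and when WT replicate 1 (0.0834) or 1 of RNAi replicates 3, 5 and 6 (0.0510, 0.0559 and 0.0637) was left out, while the log2 fold change stayed between -2.37 and -1.74 with any single library left out.

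Gh_A13G2026 (SAUR32) lay in the opposite direction. It had 0, 0.21 and 0 FPKM in WT replicates 1 to 3 and 2.06, 0.605, 3.54, 2.03 and 1.497 in RNAi replicates 2 to 6, so that WT replicates 1 and 3 were listed at 0 and all 5 RNAi libraries stood above WT replicate 2. It reached the filter in RNAi libraries alone. limma gave a log2 fold change of 1.39 ± 0.29 (SE) and an adjusted p of 0.213, which did not pass, and the adjusted p ranged from 0.0510 to 0.848 with any single library left out. Gh_D08G0393 (SAUR32) had 2.16, 2.32 and 0.468 FPKM in WT replicates 1 to 3 and 3.09, 4.58, 0, 4.72 and 1.55 in RNAi replicates 2 to 6. Its libraries spread widely in both groups, and the limma adjusted p was 0.932.

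The 3 abundant SAUR32 genes did not pass the threshold. Gh_A08G1096 (SAUR32) had 313, 303 and 382 FPKM in WT replicates 1 to 3 and 246, 211, 274, 324 and 401 in RNAi replicates 2 to 6. The RNAi libraries ran both below and above the WT range (log2 fold change -0.22 ± 0.19 (SE), limma adjusted p = 0.894). Gh_A12G2237 (SAUR32) had 51.1 ± 7.45 FPKM in WT against 45.7 ± 13.5 in RNAi (limma adjusted p = 0.913), with RNAi replicate 4 lowest at 25.9. Gh_D08G1376 (SAUR32) had 44.4 ± 5.50 and 53.5 ± 11.05 FPKM (limma adjusted p = 0.88). The summed SAUR32 level was 435 ± 52.2 FPKM in WT and 399 ± 78.1 in RNAi, so Gh_D12G2702 made up a small part of the transcripts under this symbol.

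**Figure D3:**
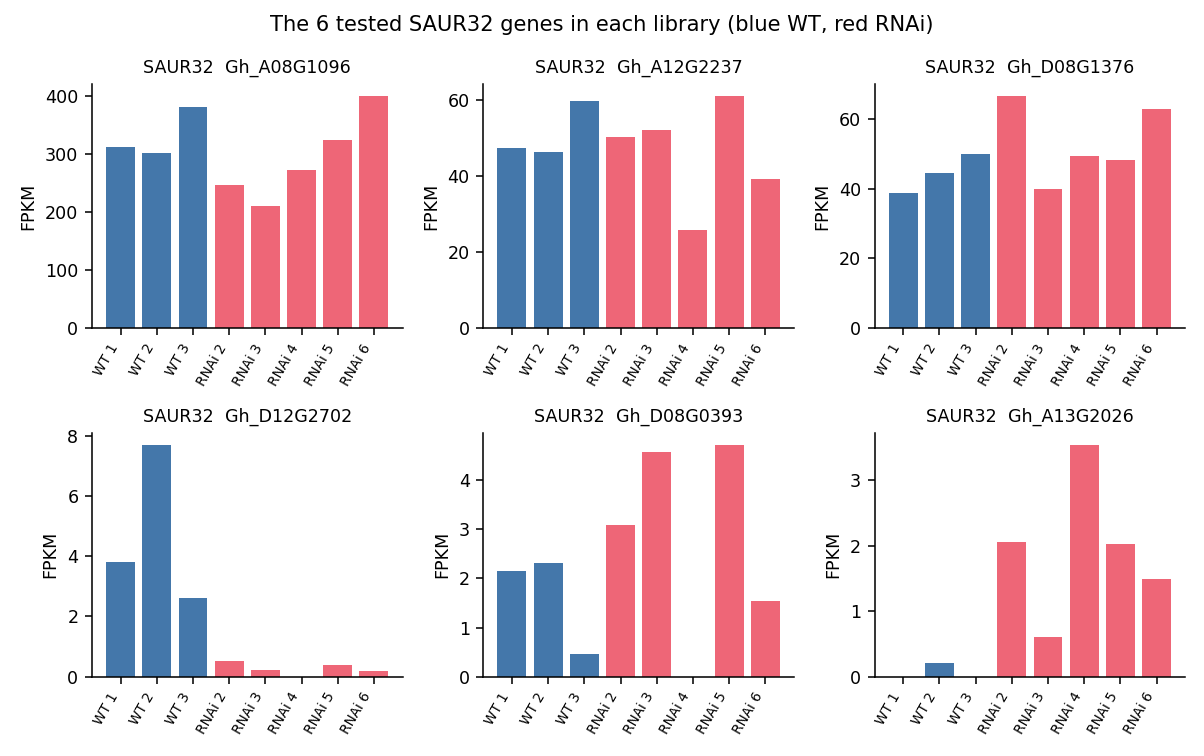
FPKM of the 6 tested SAUR32 genes in each library, WT in blue and RNAi in red, each panel with its own axis from 0. Gh_D12G2702 was at most 0.506 FPKM in RNAi and at least 2.61 in WT, Gh_A13G2026 at most 0.210 in WT, and the other 4 overlapped between groups.

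Many SAUR genes lay beside each other. By the numbers in their identifiers, 49 of the 126 SAUR genes placed on chromosomes sat in 14 runs of consecutive genes, the longest of 12 genes from Gh_D02G2267 to Gh_D02G2278. Few genes of these runs were expressed, and 9 of the 49 were tested. In the longest run, 3 genes were listed at 0 everywhere and 2 were tested, both SAUR66. Gh_D02G2275 (SAUR66) had 25.0 ± 5.41 FPKM in WT against 22.8 ± 2.55 in RNAi, and its neighbour Gh_D02G2274 (SAUR66) 17.0 ± 3.99 and 18.0 ± 1.93. These genes were named after their values were seen. By the same count, 22 of 58 GH3 genes sat in 10 runs, and no IAA, LAX or receptor gene did.

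The GH3 genes, whose enzymes inactivate auxin in Arabidopsis by joining it to amino acids, were low apart from 1 gene. Gh_D11G1989 (GH3.1) had 38.0, 35.8 and 27.1 FPKM in WT replicates 1 to 3 and 18.8, 41.8, 19.96, 39.4 and 18.7 in RNAi replicates 2 to 6. RNAi replicates 3 and 5 lay above every WT library and RNAi replicates 2, 4 and 6 below every one (limma adjusted p = 0.892). Gh_A03G1628 (GH3.1) had 4.29 ± 1.98 FPKM in WT against 6.18 ± 1.69 in RNAi (limma adjusted p = 0.874). Gh_D02G2045 (GH3.1) had the lowest p, at 1.79, 1.63 and 0.567 FPKM in WT replicates 1 to 3 and 2.32, 3.61, 3.21, 1.49 and 2.31 in RNAi replicates 2 to 6. RNAi replicate 5 lay inside the WT range, and the limma adjusted p was 0.84 (log2 fold change 0.64 ± 0.25 (SE)). Gh_A11G3061 (GH3.5) had 1.86 ± 0.539 and 2.52 ± 0.467 FPKM (limma adjusted p = 0.868). GH3.17, with 26 genes the most frequent symbol, had 5 tested genes and a WT sum of 14.0 FPKM.

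None of the 11 tested genes of the 28 PIN carriers passed the threshold. The log2 fold change was positive in 8 of 11, and in 9 after median-ratio scaling, but in 3 of 6 with a filter of 5 FPKM and in 6 of 11 without WT replicate 3, where the median was 0.019 against 0.23. PIN3, named after an exporter that redirects auxin during tropic growth in Arabidopsis, had 5 genes, of which 2 were tested. Gh_A01G1254 (PIN3) had 13.4, 13.1 and 8.12 FPKM in WT replicates 1 to 3 and 18.5, 13.9, 14.1, 9.00 and 11.4 in RNAi replicates 2 to 6. RNAi replicates 2, 3 and 4 stood above every WT library and RNAi replicates 5 and 6 inside the WT range (log2 fold change 0.19 ± 0.23 (SE), limma adjusted p = 0.912). Gh_D01G1471 (PIN3) had 5.79, 6.91 and 3.43 FPKM in WT replicates 1 to 3 and 10.7, 7.82, 9.78, 5.41 and 5.31 in RNAi replicates 2 to 6. The same RNAi replicates 2, 3 and 4 stood above the WT range (log2 fold change 0.46 ± 0.26 (SE), limma adjusted p = 0.866). Both PIN3 genes were named after their values were seen. The PIN2 genes were listed at 0 in every library. Of the 18 LAX genes, 1 was tested. Gh_A04G0767 (LAX2) had 9.92, 12.2 and 6.28 FPKM in WT replicates 1 to 3 and 9.65, 9.64, 7.36, 11.00 and 6.44 in RNAi replicates 2 to 6, and the groups overlapped fully (limma adjusted p = 0.967).

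**Figure D4:**
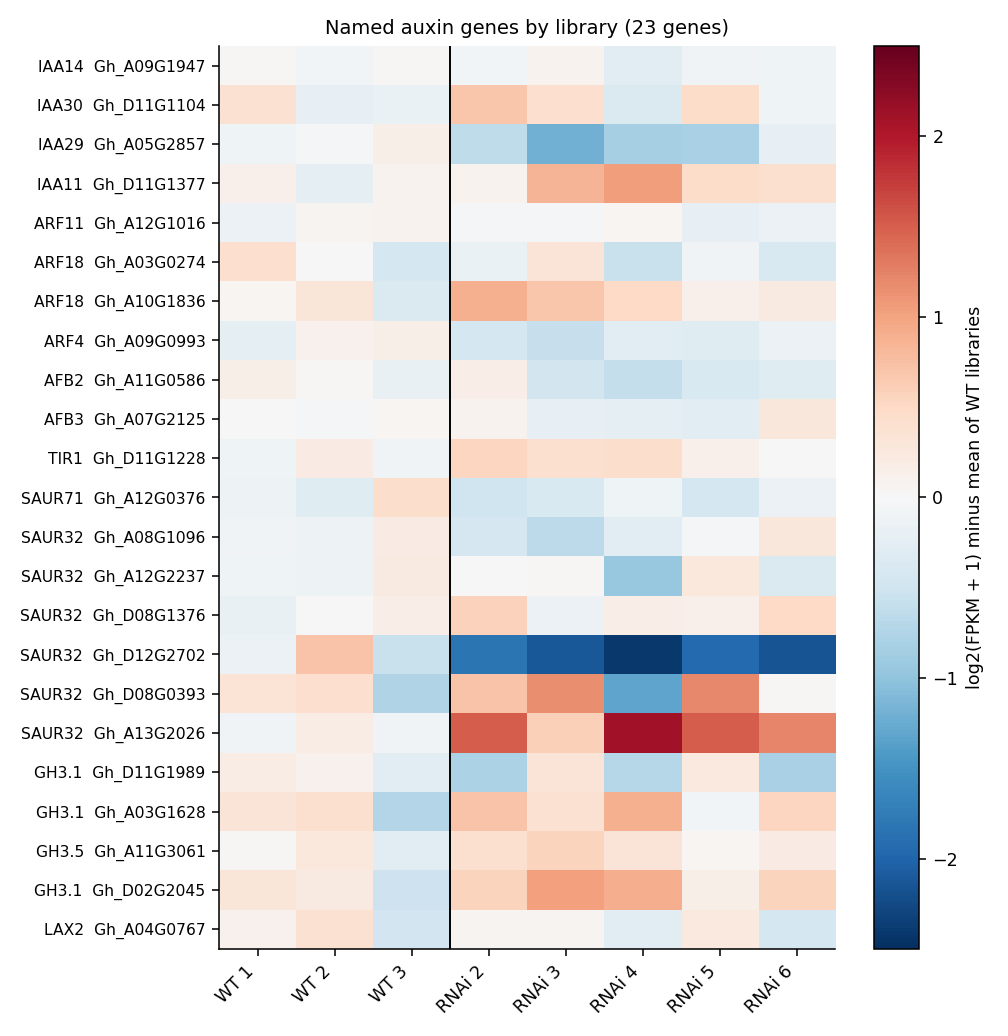
log2(FPKM + 1) of the 23 genes named by rule in each library, minus the mean of the WT libraries, ordered by family and WT level. Gh_D12G2702 (SAUR32) is low in all 5 RNAi libraries and Gh_A13G2026 (SAUR32) high, and of the 23 genes the former alone passed the threshold.

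Several auxin genes varied widely within the groups. The range of log2(FPKM + 1) among the 5 RNAi libraries exceeded 1 in 46 of 150 tested genes (30.7%), against 18.0% of all tested genes. Among the 3 WT libraries it did so in 22 (14.7%), against 7.09%. By family the RNAi count was 16 of 30 SAUR, 18 of 40 IAA and 7 of 48 ARF genes. The genes that follow were chosen for a wide range over the 8 libraries, which was widest for an IAA30 and an IAA29 gene. Gh_A11G0956 (IAA30) had 12.4, 2.94 and 3.31 FPKM in WT replicates 1 to 3 and 30.9, 14.0, 2.08, 18.3 and 2.47 in RNAi replicates 2 to 6. Gh_A07G0317 (IAA29) had 5.27, 3.32 and 1.39 FPKM in WT replicates 1 to 3 and 16.5, 10.05, 2.62, 20.9 and 2.58 in RNAi replicates 2 to 6. WT replicate 1 was the highest WT library for both genes, and RNAi replicates 2, 3 and 5 stood far above RNAi replicates 4 and 6.

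Some related genes were high in the same libraries and others were not. Gh_D11G1104 (IAA30), the abundant D namesake, had 184, 121 and 124 FPKM in WT replicates 1 to 3 and 229, 189, 109, 195 and 130.3 in RNAi replicates 2 to 6. Gh_D05G0138 (IAA29) had 16.1, 10.5 and 5.31 FPKM in WT replicates 1 to 3 and 23.7, 20.9, 13.6, 21.3 and 10.8 in RNAi replicates 2 to 6. For the former, RNAi replicates 4 and 6 lay close to WT replicates 2 and 3, and for the latter WT replicate 3 was lowest. Gh_A05G0079 (IAA29) had 3.90, 2.33 and 1.49 FPKM in WT replicates 1 to 3 and 7.68, 4.98, 3.93 and 1.88 in RNAi replicates 2 to 5, with RNAi replicate 6 the lowest library. Here RNAi replicate 5 lay below RNAi replicate 4 and inside the WT range. Gh_A05G2857 (IAA29), given above, was highest among the RNAi libraries in replicate 6 and lowest in replicate 3. Their limma adjusted p values were 0.905 for Gh_A11G0956, 0.864 for Gh_A07G0317, 0.904 for Gh_D11G1104 and 0.844 for Gh_D05G0138. Gh_A01G0260 (SAUR72) had 3.78, 2.65 and 3.65 FPKM in WT replicates 1 to 3 and 15.9, 5.89, 0.983, 9.86 and 2.43 in RNAi replicates 2 to 6, again highest in RNAi replicate 2 and lowest in RNAi replicate 4 (limma adjusted p = 0.912). Outside the families, Gh_A09G1558 (TAR2), named after a tryptophan aminotransferase of auxin synthesis, had 3.62, 2.56 and 0.944 FPKM in WT replicates 1 to 3 and 5.38, 12.5, 0.972, 10.2 and 0.533 in RNAi replicates 2 to 6 (limma adjusted p = 0.905).

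Markers of vascular tissue and secondary walls, as a sum, were high in the RNAi libraries where Gh_A11G0956 (IAA30) and Gh_A07G0317 (IAA29) were high. The 104 genes of that list summed to 499, 488 and 374 FPKM in WT replicates 1 to 3 and 671, 621, 405, 677 and 424 in RNAi replicates 2 to 6, so the same RNAi replicates 2, 3 and 5 were high. In WT the sum had the order of Gh_A07G0317 but not that of Gh_A11G0956, which was lowest in WT replicate 2. Of its 25 tested genes none passed the threshold, and 1 (4.0%) had an unadjusted limma p under 0.05, against 5.86% of all tested genes. The log2 fold change was positive in 17 of the 25, against 46.4% of all tested genes. Its symbols differed. The 2 IRX9 genes, for xylan synthesis in secondary walls, summed to 71.1 to 89.5 FPKM in WT and 56.6 to 160.4 in RNAi. In RNAi the IRX7 genes also reached above their WT range (94.2 to 132 FPKM in WT and 82.2 to 189 in RNAi). So did LAC17 (23.0 to 54.8 and 52.0 to 71.3) and SND1 (26.8 to 43.3 and 33.6 to 62.0). SUC2 (12.6 to 19.6 and 10.3 to 38.5), IRX10, IRX15 and APL did so too. All of these but LAC17, SND1 and APL also reached below their WT range. The ATHB-8 genes (3.13 to 5.53 FPKM in WT and 3.90 to 5.20 in RNAi) and the IRX12 genes (9.56 to 18.6 and 9.85 to 16.2) stayed inside their WT range. XCP1, a protease of xylem vessels, was at most 0.268 FPKM in any library, and LAC4, a lignin laccase, at most 0.366. The seed coat flavonoid list did not follow this order, at 536, 642 and 470.3 FPKM in WT replicates 1 to 3 and 769.7, 550.5, 932, 467 and 602 in RNAi replicates 2 to 6. RNAi replicates 4 and 6 were also the shallowest RNAi libraries, at a relative depth of 0.366 and 1.11, and RNAi replicate 2 was near the latter at 1.26. The part of these markers and of depth in the variation was not tested.

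**Figure D5:**
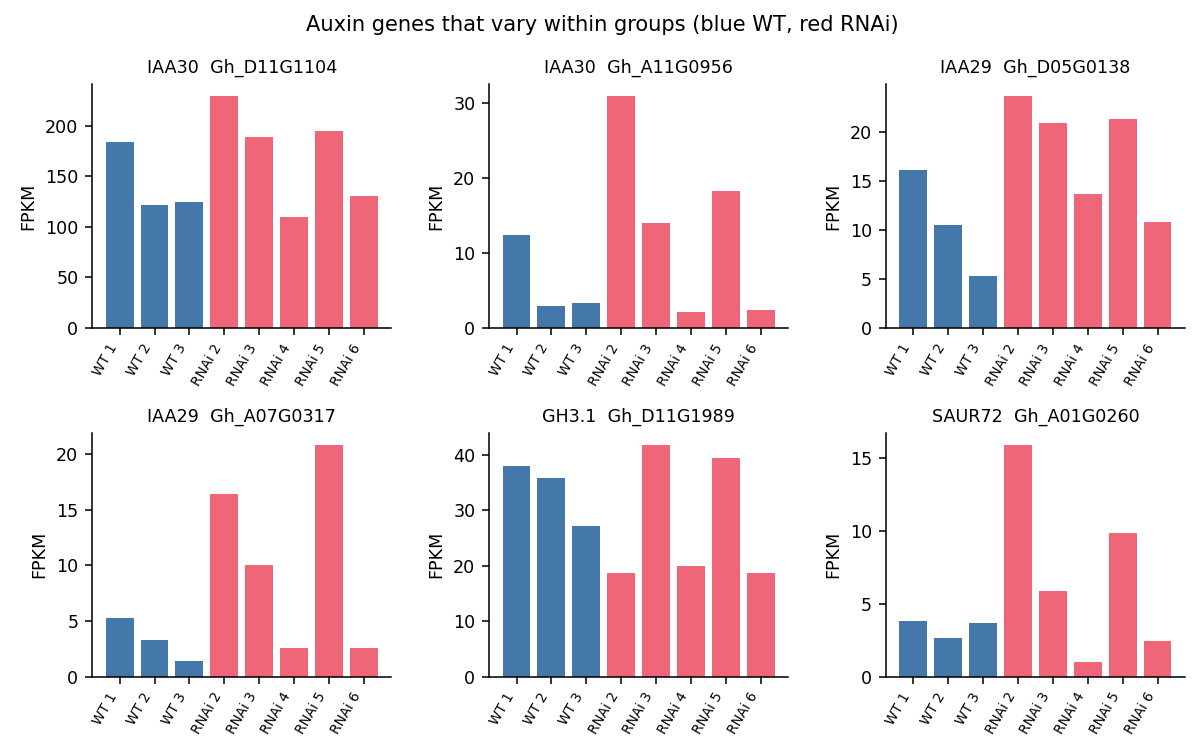
FPKM in each library of 6 auxin genes that differ within the groups, WT in blue and RNAi in red, each panel with its own axis from 0. For the IAA29 and IAA30 genes shown, RNAi replicates 2, 3 and 5 stand above replicates 4 and 6; Gh_D11G1989 (GH3.1) differs in that RNAi replicate 2 is low, at 18.8 FPKM.

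Copies of a gene in the A and D subgenomes were often unequal. Among genes that shared a symbol and a chromosome number and were single in each subgenome, 33 pairs had both members tested. The A member was higher in all 8 libraries in 11 pairs, the D member in 10, and the order varied between libraries in 12. The most unequal pair was IAA14, at 424 ± 15.8 FPKM in WT for Gh_A09G1947 (IAA14) and 2.09 ± 0.214 for Gh_D09G2153 (IAA14), a ratio of 203. IAA30 leaned the other way, with Gh_D11G1104 (IAA30) 23.1 times Gh_A11G0956 (IAA30) in WT, and 39.3 times without WT replicate 1. For SAUR72, Gh_A07G0145 was 5.93 times Gh_D07G0138. The direction of the log2 fold change was the same in both members in 23 of the 33 pairs. The share over pairs of other genes is not given here, and values of close copies are uncertain, as stated above. Whether these pairs are true counterparts of each other is not given by the file, and the pairs named were chosen after their values were seen.

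The rest of the pathway showed no gene past the threshold. Over all tested genes 0.167% passed, 5.86% had an unadjusted limma p under 0.05 and 46.4% had a positive log2 fold change. Of the synthesis and release list (84 genes, 15 tested) none passed, 8 log2 fold changes were positive and the unadjusted p was never under 0.05. Gh_D07G0235 (YUC6), a flavin monooxygenase of auxin synthesis, was its highest gene at 29.9 ± 2.98 FPKM in WT against 30.1 ± 6.70 in RNAi (limma adjusted p = 0.992). Of the transport list other than PIN and LAX (58 genes, 28 tested) none passed, none had an unadjusted p under 0.05 and 14 were positive. Gh_A07G0985 (D6PKL2), of a kinase family that activates PIN proteins in Arabidopsis, had 122 ± 1.57 and 112 ± 7.79 FPKM (limma adjusted p = 0.88). Of the list of co-repressors and subunits of the ubiquitin ligase (116 genes, 88 tested) none passed, 3 (3.41%) had an unadjusted p under 0.05 and 46 were positive. Gh_A08G1965 (TPL), named after a co-repressor that Aux/IAA proteins recruit, had 2.17 ± 0.877 and 3.53 ± 1.11 FPKM (limma adjusted p = 0.844). Of auxin genes whose symbols lie outside the families (116 genes, 42 tested) none passed, 3 (7.14%) had an unadjusted p under 0.05 and 26 were positive.

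In that last list 2 genes on A05 stood at different levels in different RNAi libraries. Gh_A05G0249 (ABP20), of the germin-like proteins once isolated as auxin-binding proteins, had 15.7, 13.8 and 22.7 FPKM in WT replicates 1 to 3 and 648, 14.4, 20.6, 624 and 850.1 in RNAi replicates 2 to 6. Gh_A05G3949 (ABP19A), of the same kind, had 1.01, 0.431 and 0.458 FPKM in WT replicates 1 to 3 and 91.4, 1.105, 2.77, 87.1 and 103 in RNAi replicates 2 to 6. RNAi replicates 2, 5 and 6 were high for both, and RNAi replicates 3 and 4 were far lower. The latter lay inside the WT range for Gh_A05G0249 but above every WT library for Gh_A05G3949. The limma adjusted p was 0.84 and 0.757. The abundant Gh_D05G0341 (ABP20) had no such split, at 2165, 2099 and 3061 FPKM in WT replicates 1 to 3 and 2050.4, 1895, 1751, 2254 and 2546 in RNAi replicates 2 to 6. Gh_A12G1422 (TMK1), named after a receptor-like kinase of auxin signalling at the plasma membrane, had 8.51 ± 0.663 FPKM in WT against 11.9 ± 2.02 in RNAi, with every RNAi library above every WT library and a limma adjusted p of 0.77. The genes named in these pathway lists were chosen after their values were seen.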

How the data were processed

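Per the labels, total RNA of 9 DPA fibres was sequenced. The authors deposited 1 table of FPKM, and the values used here had columns for 8 libraries and none for RNAi replicate 1. The submitters' processing notes list FastQC, HISAT2 and DESeq 1.10.1 with no role, and the sources used here give no genome build, annotation or counter. Columns were matched to samples by group and replicate number. Of 397 member identifiers, 0 matched the reference table, so no coordinates are given; chromosomes are those in the identifiers. The model was a two-sided limma fit (version 3.58.1, R 4.3.3, eBayes with a trend) of log2(FPKM + 1) for the 34051 genes that reached 1 FPKM in 3 or more libraries, with p adjusted by Benjamini-Hochberg and called under 0.05. It was tested on simulated data. Relative depth is the commonest ratio of values under 0.5 FPKM to those of WT replicate 1 (bins of 0.01 on the log2 scale). Without the absolute depth, counting intervals could not be computed. Members and lists were chosen with earlier results of these data known. Named genes were, per family, the 2 with the highest mean and the 2 with the lowest p, with all tested SAUR32 genes; others are stated as chosen after their values were seen. The design was written for all libraries whose columns could be matched to samples, and its fit was applied to 8. Alternatives were a pseudocount of 0.1, no filter, a filter at 5 FPKM, median-ratio scaling, each library left out (with the tested genes kept), a replicate block and, chosen after seeing the data, leaving out the symbols ARF3 to ARF6. Some genes are counted in the totals but are not reported here.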

Additional observations from a re-analysis of the deposited data

How the results depend on the processing

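The count of 1 auxin gene past the threshold, Gh_D12G2702 (SAUR32), became 0 with a pseudocount of 0.1 (log2 fold change -3.82 on that scale) and 0 with a filter at 5 FPKM, where this gene was no longer tested. With single libraries left out it ranged from 0 to 1. It was 4 under the replicate block, which also called Gh_A07G0317 (IAA29, adjusted p = 0.0129), Gh_A11G0956 (IAA30, 0.0304) and Gh_D05G0138 (IAA29, 0.0456) as higher. The groups share only the numbers 2 and 3, so that fit compares RNAi replicates 2 and 3 with WT replicates 2 and 3 with 1 residual degree of freedom, and its count over all genes was 313 against 57. Same-numbered libraries did not deviate together throughout (correlation of deviations 0.350 for number 2 and -0.09 for number 3), so the numbers were not taken as pairs. Over all genes the count was 36 with the filter at 5 FPKM and ranged from 33 to 58 with single libraries left out, with 33 without WT replicate 2 or 3, 34 without RNAi replicate 5 and 37 without RNAi replicate 2. Auxin genes at an unadjusted p under 0.05 numbered 5 with the filter at 5 FPKM and 32 under the replicate block, and ranged from 7 to 15 with single libraries left out, the lowest without WT replicate 3. Positive log2 fold changes numbered 192 of 309 with no filter (62.1%, against 50.7% of all tested genes). With the filter at 5 FPKM they numbered 33 of 70 (47.1%, against 44.8%), where the median of the auxin genes was -0.017. That median ranged from 0.01 to 0.08 with single libraries left out. Small log2 fold changes turned sign in 7 cases, none of them called. Under the replicate block Gh_A03G0274 (ARF18) stood at 0.29, Gh_A04G0767 (LAX2) at 0.12 and Gh_A09G1947 (IAA14) at 0.025. With single libraries left out, Gh_A03G0274 ranged from -0.40 to 0.040 (above 0 without WT replicate 1), Gh_A04G0767 from -0.31 to 0.12 (above 0 without RNAi replicate 6, at 0.023, or WT replicate 2) and Gh_D08G0393 (SAUR32) from -0.019 (without WT replicate 3) to 0.78. The cause was not tested. Of 290 values for the 23 named genes, 278 kept their direction and their side of the threshold. Leaving out the symbols ARF3 to ARF6 left 1 gene past the threshold and 13 at an unadjusted p under 0.05 (9.85%, against 5.86% of all tested genes). The shallow RNAi replicate 4 limits genes near 1 FPKM.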
